A study of Homo sapiens with 5 samples.

Results

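Short nascent strand sequencing (SNS-seq) of human EJ30 cells, a bladder carcinoma line, gave 37816 sites that were called in both strand size fractions yet lie far from any origin called by ini-seq 2 in the same line. These far shared peaks are defined by measured positions. Each is a peak of the 0.5 to 2 kb fraction on an autosome that shares at least 1 bp with a peak of the 2 to 4 kb fraction, and is more than 5 kb from every ini-seq 2 interval called after 3 hours or after 15 minutes. They are 37816 of 145472 autosomal peaks of the 0.5 to 2 kb fraction, which holds 147657 peaks in all. Every sample came from EJ30 cells, and no genotype or treatment was compared. SNS-seq used strands from EJ30 cells, called against EJ30 genomic DNA, and ini-seq 2 used nuclei of EJ30 cells held in late G1 phase with mimosine, which copied DNA in cytosolic extract of HeLa cells, a cervical carcinoma line, for 3 hours or for 15 minutes. The sources do not explain the word control in the title of the 15-minute sample. Each condition is 1 deposited list of positions, with 181905 autosomal peaks in the 2 to 4 kb fraction, 23608 autosomal ini-seq 2 intervals at 3 hours and 9955 at 15 minutes. There are no replicates, read counts or peak scores for SNS-seq, so the depth and the error of a single peak are unknown, and the intervals given for shares cover counting error only.

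DNA replication starts at origins, where the helicase loaded in G1 phase is switched on and a pair of forks leaves in opposite directions. SNS-seq purifies the short strands made just after a fork has started, which carry an RNA primer and so resist an exonuclease that removes broken DNA. Ini-seq 2 instead marks the DNA that nuclei copy in a cell-free reaction with a heavy nucleotide. Human origins are known to gather at GC-rich sequence, at CpG islands and gene starts, and next to G4 motifs, runs of guanines that can fold into a stacked structure.

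A far shared peak of ordinary length, GC content and CpG ratio is shown first. It lies in an intron of SDC1, a cell surface proteoglycan gene, has the median length of 297 bp and was chosen after values were seen, for a GC content (56.9%) and a ratio of observed to expected CpG (0.262) near the medians. Its surroundings were not matched and are unusual. Their GC content, at the distance used below, was 61%, against a mean of 47.6% (SD 6.98) around far shared peaks. The SDC1 peak thus had a lower GC content than its surroundings. Far shared peaks exceeded theirs by 7.36 points on average (SD 8.89). The run is the plus strand of chr2:20207845-20208140 on hg38, with runs of 3 or more G or C in capitals.

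SDC1 intron: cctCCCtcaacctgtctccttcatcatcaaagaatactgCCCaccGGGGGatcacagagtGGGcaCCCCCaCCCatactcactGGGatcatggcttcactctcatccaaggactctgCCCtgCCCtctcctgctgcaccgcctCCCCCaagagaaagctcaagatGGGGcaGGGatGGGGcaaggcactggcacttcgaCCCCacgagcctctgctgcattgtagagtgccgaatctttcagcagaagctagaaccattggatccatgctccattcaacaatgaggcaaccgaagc

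Peaks at the ends of the range look different. The far shared peak on chromosome 13 that is farthest from any ini-seq 2 interval and the next one after it are shown by 120 bp at their centres, chr13:66009355-66009474 outside any gene and chr13:65910014-65910133 in LINC01052, both on the plus strand with the same capitals.

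Farthest peak: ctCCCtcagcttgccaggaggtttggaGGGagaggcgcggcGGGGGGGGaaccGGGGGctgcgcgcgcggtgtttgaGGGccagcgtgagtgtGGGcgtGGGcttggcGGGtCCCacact
Next farthest peak: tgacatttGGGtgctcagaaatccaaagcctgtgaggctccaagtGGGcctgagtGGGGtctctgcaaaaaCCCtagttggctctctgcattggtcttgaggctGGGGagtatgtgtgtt

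The farthest peak has 11 CpG steps in its 120 bp and the next has 0, although only about 100 kb separate them and both lie in AT-rich surroundings, with GC contents of 33.8% and 33.0% at 9 to 10 kb on either side.

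For 2 of the far shared peaks richest in G4 motifs the longest motif is shown in capitals, on the plus strand. The ARID1B peak, in an intron of a chromatin remodelling gene, holds 9 motifs and its capitals are a motif whose G runs are on the minus strand, chr6:157147219-157147338. The peak on chromosome 20 holds 8 motifs and a start annotated as 5.8S ribosomal RNA, with its motif on the plus strand, chr20:29300174-29300293. Its label names the peak. The run was chosen around the motif and was not checked to hold any ribosomal RNA sequence.

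ARID1B intron: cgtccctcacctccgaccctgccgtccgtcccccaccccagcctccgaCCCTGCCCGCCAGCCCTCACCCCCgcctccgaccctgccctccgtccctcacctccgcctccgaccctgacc
Ribosomal RNA copy: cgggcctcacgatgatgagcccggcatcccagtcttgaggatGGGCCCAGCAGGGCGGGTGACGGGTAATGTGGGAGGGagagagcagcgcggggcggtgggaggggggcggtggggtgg

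Long far shared peaks over a coding gene start are shown by that of RFX4, which encodes a transcription factor of the developing brain. The 120 bp at the peak centre, chr12:106581573-106581692, are on the plus strand with runs of 3 or more G or C in capitals. The label names the peak and not the run. Windows touching an annotated untranslated region were passed over in choosing the run, which was not checked to hold the start itself.

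RFX4 start: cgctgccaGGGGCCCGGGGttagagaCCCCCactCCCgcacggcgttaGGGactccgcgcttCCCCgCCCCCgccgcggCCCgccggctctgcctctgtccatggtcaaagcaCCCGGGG

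Of the autosomal peaks of the 0.5 to 2 kb fraction, 64.0% shared sequence with a peak of the 2 to 4 kb fraction, and 58.5% lay more than 5 kb from both ini-seq 2 lists. Among the 93141 shared peaks the far ones made up 40.6% (95% exact Clopper-Pearson interval 40.3 to 40.9%), a share set by the rule and given as a description. The other 55325 shared peaks, called near here, lie within 5 kb of an ini-seq 2 interval, and 23892 of them overlap one. A further 47273 peaks are far but have no partner in the 2 to 4 kb fraction, and are called far unshared. At the limit itself the peaks were alike. The 247 far shared peaks between 5001 and 5100 bp from an interval had a mean GC content of 57.0% and a G4 motif in 23.1%, and the 271 near peaks between 4902 and 5000 bp had 57.2% and 26.9%. The closest peak inside the limit lies at 5001 bp, in NADK, and the last one outside it at 5000 bp, in MMRN2.

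Far shared peaks are short. Their median length was 297 bp (quartiles 217 and 420 bp), against 396 bp for near shared and 229 bp for far unshared peaks. The median distance to the nearest ini-seq 2 interval was 22.8 kb (quartiles 10.4 and 59.99 kb), and the largest was 5611 kb. The overlapping peak of the longer strands was also shorter than at near peaks, with a median of 438 bp against 2047 bp, and the centres of the pair lay 70 bp apart at the median against 274.5 bp. It covered 47.9% of the far shared peaks from end to end, against 82.1% of the near ones. For 954 far shared peaks the partner itself reached to within 5 kb of an ini-seq 2 interval. These lengths and overlaps come from the calls that chose the peaks and were not tested.

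In sequence, far shared peaks stood between near shared and far unshared peaks. Their mean GC content was 54.9% (SD over peaks 7.63, n = 37816), against 59.6% at near and 46.0% at far unshared peaks. A G4 motif, here 4 runs of 3 or more G on 1 strand, separated by 1 to 7 other bases, was found in 16.4% of far shared, 41.5% of near shared and 2.43% of far unshared peaks. The CpG island criterion, a GC content above 50% with a ratio of observed to expected CpG above 0.6, was met by 9.34%, 26.97% and 1.20%. In 300 bp windows tiling the autosomes more than 5 kb from both ini-seq 2 lists, 2.42% held a G4 motif and 0.828% met the CpG criterion. Over the central 300 bp of each far shared peak, the same window size, the shares were 15.0% and 9.76%. These windows have no test attached, since windows are not replicates of peaks.

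The differences were tested with the 22 autosomes as blocks of 1 map, which are not biological replicates, by flipping signs of the differences. Compared with near shared peaks, the mean difference over autosomes was -4.63 percentage points for GC content (SD 0.623), -25.2 for G4 motifs (SD 2.12) and -19.5 for the CpG criterion (SD 6.54), each lower on 22 of 22 autosomes (two-sided permutation test, p = 1e-05, the smallest that 100000 flips can give, and 1.2e-05 after Benjamini-Hochberg adjustment over 16 tests). Compared with far unshared peaks the differences were 8.87 points for GC content (SD 0.778), 13.9 for G4 motifs (SD 1.91) and 8.64 for the CpG criterion (SD 3.01), higher on 22 of 22 autosomes at the same permutation p. G4 motifs were found in 13.7 to 20.7% of the far shared peaks of an autosome and in 37.5 to 45.8% of its near peaks, so the groups did not overlap. Chromosome 8 had the highest share among far shared peaks and chromosome 3 the lowest.

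**Figure D1:**
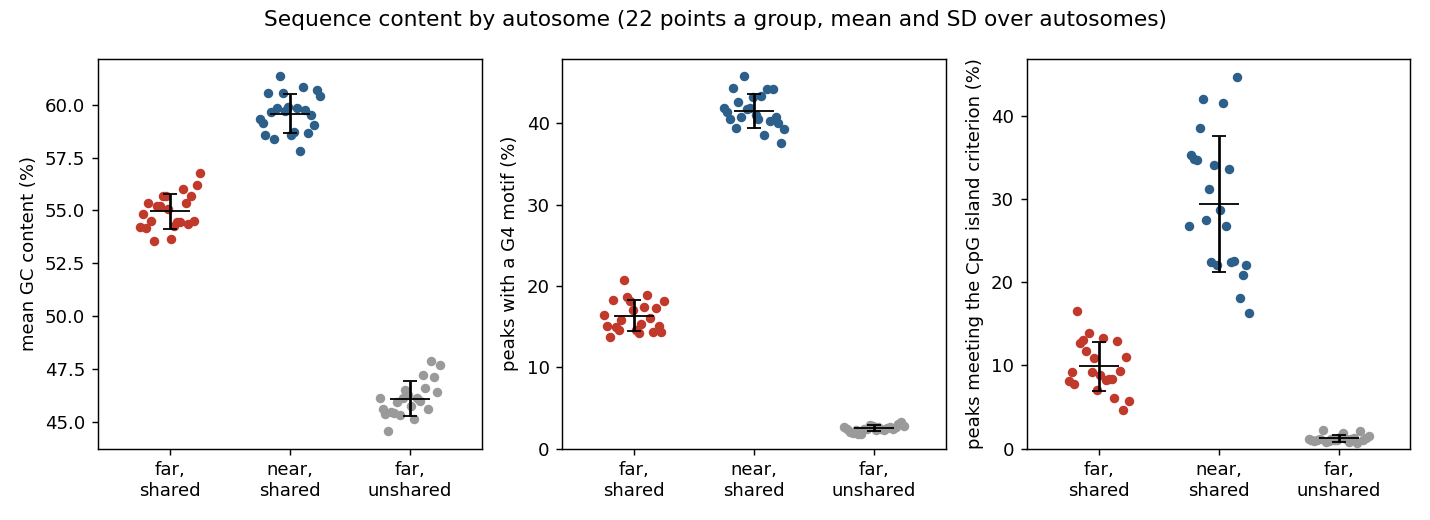
Mean GC content (%), share of peaks with a G4 motif (%) and share meeting the CpG island criterion (%) for far shared, near shared and far unshared peaks, with 1 point per autosome and the mean and SD over 22 autosomes in black. The mean of the far shared points lies between those of the other groups in each panel, the G4 shares of 13.7 to 20.7% overlap with neither group, and in the CpG panel the highest far shared point (16.5%) is above the lowest near shared one (16.2%).

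The near shared peaks were themselves mixed. Of those that overlap an ini-seq 2 interval, 69.0% held a G4 motif, 53.2% met the CpG criterion and 36.9% contained a gene start. The 31433 near peaks that overlap none were much closer to the far shared ones, with a G4 motif in 20.6%, the CpG criterion in 7.01% and a gene start in 2.52%. Against these alone, far shared peaks still had a lower GC content, by -0.891 points (permutation p = 0.0003), and fewer G4 motifs, by -3.59 points (permutation p = 2e-05). The CpG criterion and gene starts turned round, and were more frequent at far shared peaks by 2.02 points (permutation p = 0.00018, higher on 17 of 22 autosomes) and by 2.98 points (permutation p = 1e-05, higher on 22 of 22).

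Motif content went with length within the far shared peaks as well. Of far shared peaks under 300 bp, 10.5% held a G4 motif, and of the 124 that reached 2000 bp or more, 79.8% did. Within 10 groups of similar length, the G4 difference from near peaks shrank to -9.02 points and the gene start difference to -1.21. The difference in the CpG criterion shrank to -6.55 points and that in GC content to -2.88. Within 10 groups of similar GC content the G4 difference from near peaks was -9.76 and the CpG difference -9.14. Against far unshared peaks the G4 difference within GC groups was 8.34 points. All of these kept their direction and a permutation p of at most 2e-05.

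Other simple sequences were rare. An unbroken run of at least 30 purines or pyrimidines was found in 0.465% of far shared, 1.50% of near shared and 0.224% of far unshared peaks, and at least 10 units of a dinucleotide repeat in 0.190%, 0.687% and 0.129%. Both were less frequent than at near peaks, by -1.05 and -0.541 points (permutation p = 1e-05), which did not hold against the near peaks that overlap no interval (-0.0236 points, permutation p = 0.72, and -0.0924 points, p = 0.082). Purine or pyrimidine runs were more frequent than at far unshared peaks by 0.257 points (permutation p = 6e-05), a call that was lost in equal windows of 300 bp (0.0610 points, permutation p = 0.21), while for dinucleotide repeats the difference of 0.0491 points (SD 0.145) did not pass the test (permutation p = 0.13).

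The sequence content of shared peaks did not fall off evenly with distance. From 5 to 10 kb to 200 to 500 kb, the share of 0.5 to 2 kb peaks with a partner in the longer fraction fell from 61.1% to 32.7%, with 38.4% beyond 500 kb. Mean GC content was 56.6% at 5 to 10 kb, 53.3% at 50 to 100 kb and 55.8% beyond 500 kb. G4 motifs followed the same course, from 20.3% (95% interval 19.4 to 21.1%) to 13.3% (12.4 to 14.3%) and back to 17.6% (15.3 to 20.1%). The CpG criterion and gene starts rose all the way, from 6.32% and 2.95% of peaks at 5 to 10 kb to 24.7% and 12.95% beyond 500 kb. Over the same range the GC content of the surroundings, 9 to 10 kb to each side, went from 53.1% to 36.8%. The excess of the peak over its surroundings went from 3.54 to 19.0 points. For peaks at 5 to 10 kb the surroundings can reach the ini-seq 2 interval itself, so the first of these values depend on the rule. At 10 to 20 kb the surroundings had 49.1% and the excess was 6.50 points. These bins use distances that the rule also uses and are given without a test.

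**Figure D2:**
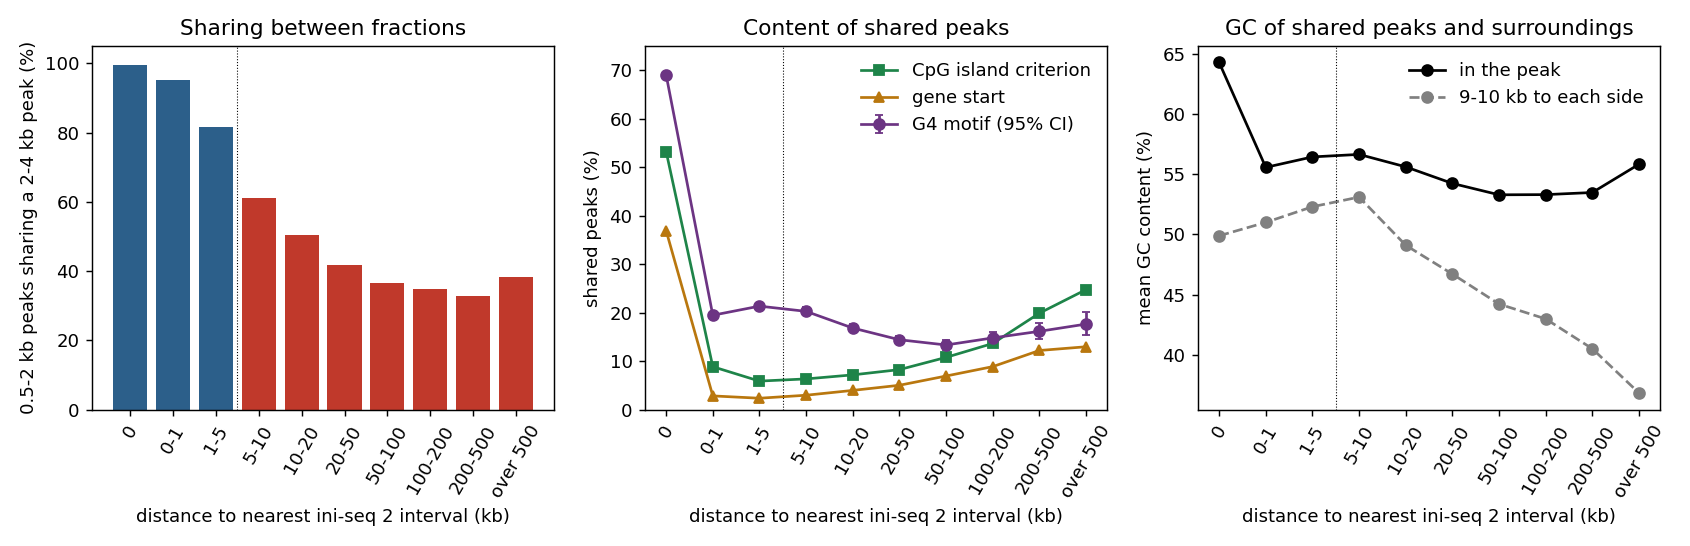
Left, share of 0.5 to 2 kb peaks that share a peak of the 2 to 4 kb fraction (%), middle, shares of shared peaks with a G4 motif (with 95% intervals), meeting the CpG criterion or containing a gene start (%), and right, mean GC content (%) in shared peaks and 9 to 10 kb from them, all against the distance to the nearest ini-seq 2 interval in kb. The dotted line marks the 5 kb limit, and beyond it the CpG share climbs from 6.32 to 24.7% while the surroundings fall from 53.1 to 36.8% GC. At 5 to 10 kb the surroundings can reach the interval itself.

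Beyond 500 kb there were 1027 far shared peaks, of which 254 met the CpG criterion and 50 contained the start of a coding gene. Several of them, picked after their values were seen, act in neurons or in the embryo. The start of PCDH9, an adhesion protein of neurons, was covered by a peak of 1249 bp with a GC content of 61.9%, at 4635 kb from the nearest ini-seq 2 interval and in surroundings of 37.9% GC. NCAM2, another adhesion protein, had a peak of 2127 bp with 4 G4 motifs at 2752 kb, and the axon guidance receptor EPHA7 a peak of 1804 bp with 3 motifs at 2157 kb. Among transcription factor genes there was a peak of 1695 bp at the start of SOX2, which maintains stem cells, of 2437 bp at TWIST1, which acts in mesoderm, and of 1225 bp at ATOH1, which specifies hair cells and cerebellar neurons. Not all were long, and the peak at the start of the ephrin receptor gene EPHA5 measured 214 bp. Of the 1027 peaks, 92 lie within 1000 kb of an assembly gap of at least 50 kb, and without them the CpG share was 21.2% of 935 and the G4 share 17.4%.

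The 10 longest far shared peaks over a coding start run from RFX4, with 3040 bp and 4 G4 motifs at 191 kb, through GRIN2A, a glutamate receptor subunit (2806 bp, 335 kb), and PENK, which encodes the enkephalin precursor (2773 bp, 125 kb), to TRIM71, a regulator of early embryonic cells (2582 bp, 34.8 kb). GAL3ST1, GALNT17, B3GALT1, PDZRN3 and LRRTM1 are among the others. Their GC contents were between 58.3% at PDZRN3 and 68.5% at TRIM71, and in 9 of 10 the CpG ratio was above 0.6, GAL3ST1 having 0.369.

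The link to GC content was steep across the genome. Of the 300 bp windows far from ini-seq 2 intervals, 0.418% of those with a GC content of 40 to 45% overlapped a far shared peak, 2.61% at 50 to 55%, 17.1% at 60 to 65% and 31.6% at 70 to 75%. At 80 to 85% the share was 5.86%, from 1058 windows. Among all far windows with at least 60% GC, 19.9% overlapped a far shared peak and 1.001% a far unshared one, whereas over all far windows the shares were 0.974% and 1.03%. For far unshared peaks the share was highest at 50 to 55% GC, with 2.80%. The far shared peaks themselves were spread widely, and 63.0% had a GC content above 50% without the CpG density of an island, while 27.7% had at most 50%.

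At equal GC content, G4 motifs separated the groups less. In the central 300 bp of peaks with 60 to 65% GC, a motif was found in 26.2% of far shared peaks, 28.7% of near shared peaks and 21.0% of far unshared peaks, beside 22.7% of all far windows. At 70 to 75% GC far shared peaks had 36.3% and far windows 37.9%, while near peaks had 49.0%.

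**Figure D3:**
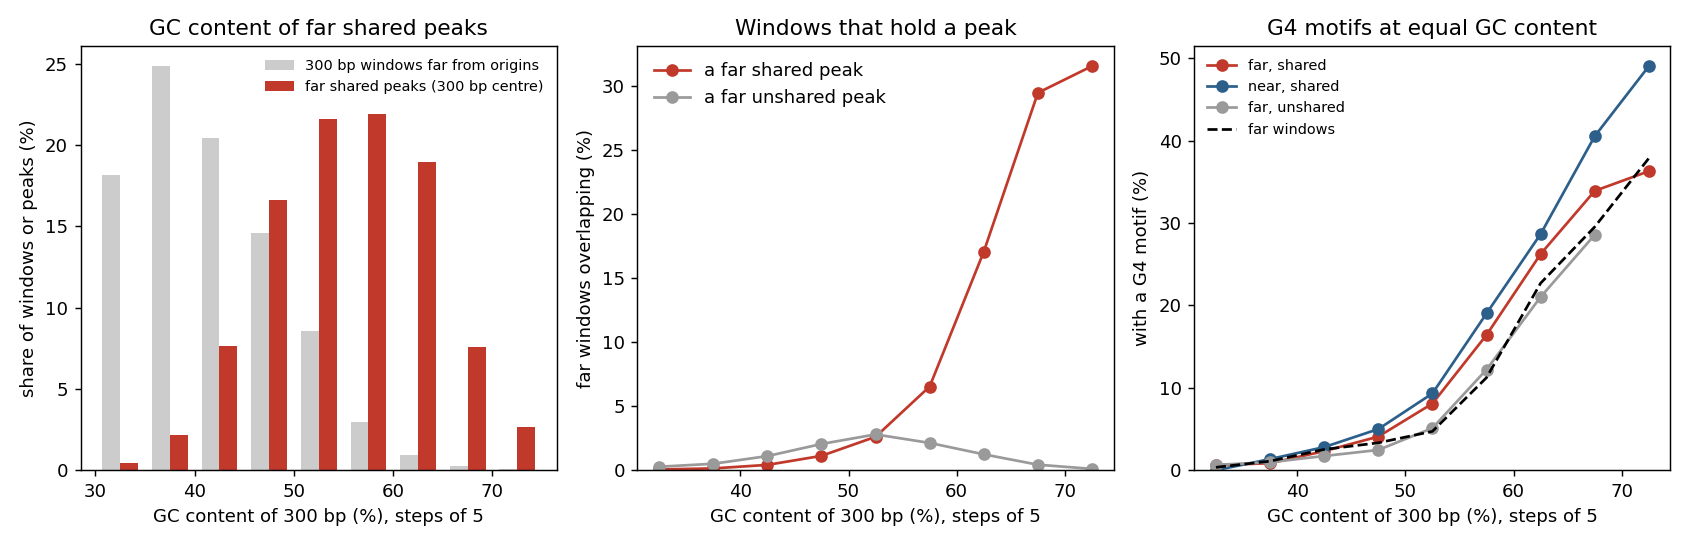
Left, GC content of 300 bp windows far from ini-seq 2 intervals and of the central 300 bp of far shared peaks (share in %), middle, share of these windows that overlap a far shared or a far unshared peak (%), and right, share with a G4 motif (%), in steps of 5 percentage points of GC content from 30 to 75%. The middle panel climbs to 31.6% for far shared peaks and stays under 3% for far unshared peaks, and G4 points with under 20 peaks are left out.

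Where a G4 motif was present it lay mostly to 1 side of the peak. Read along the strand that carries the G runs, motifs were densest 100 to 200 bp before the centre of far shared peaks, with 84.0 motifs per 1000 peaks, and had dropped to 38.3 at 100 to 200 bp after it, beside 30.2 and 26.3 found 900 to 1000 bp before and after the centre. Of 9031 motifs within 200 bp of a centre, 64.1% (95% interval 63.1 to 65.1%) lay before it in this sense. The share was 54.8% (54.2 to 55.4%) at near shared and 73.0% (71.2 to 74.7%) at far unshared peaks. Motifs of the same peak are not independent, and no test was made. Of the motifs in far shared peaks inside coding genes, 51.2% (49.8 to 52.6%) had their G runs on the coding strand, against 54.7% at near peaks. The ARID1B motif printed above is an example on the minus strand.

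**Figure D4:**
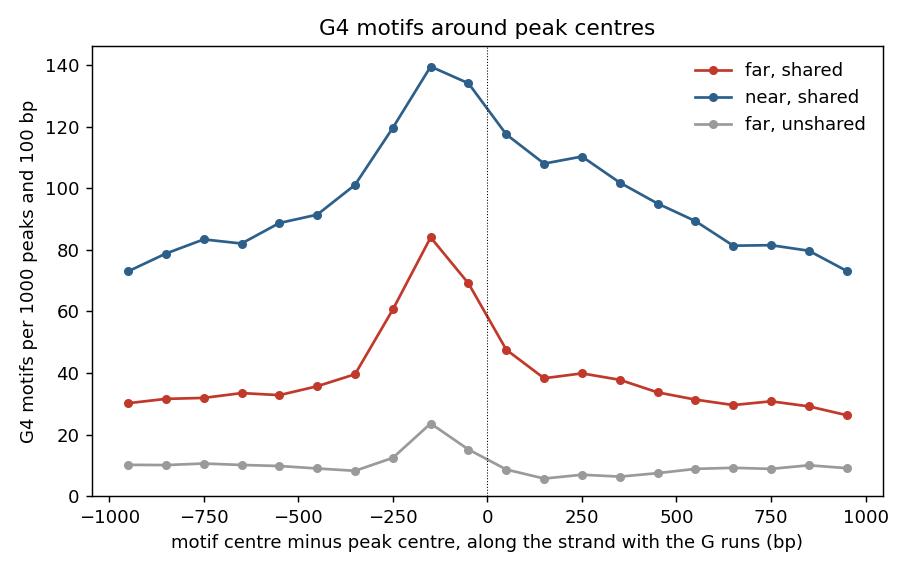
G4 motifs per 1000 peaks and 100 bp against the position of the motif relative to the peak centre (bp), along the strand with the G runs, for far shared, near shared and far unshared peaks. In each group the maximum lies 100 to 200 bp before the centre, at 84.0 for far shared and 139 for near shared peaks.

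Most far shared peaks lie inside genes but not at their starts, as does most of the sequence far from ini-seq 2 intervals, of whose 300 bp windows 61.0% touch a gene and 39.0% do not. Introns held 45.1% (17056 peaks), stretches outside genes 28.1% (10642) and coding sequence 13.7% (5162), counted in the order start, coding sequence, other exon, intron. Any exon was overlapped by 26.8%, beside 7.29% of far windows of 300 bp, and at near peaks by 48.8%. A gene start of any kind lay in 5.42% of far shared peaks (0.458% of far windows), 17.4% of near and 1.69% of far unshared peaks. The exon and gene start shares are of whole peaks, which were not matched in length to the 300 bp windows or between groups. The mean difference in gene starts from near peaks was -12.9 points (SD 3.07, lower on 22 of 22 autosomes) and from far unshared peaks 3.82 points (SD 0.868, higher on 22 of 22, permutation p = 1e-05 for both). Over the central 300 bp of the peaks these differences were smaller, -4.11 and 1.88 points (permutation p = 1e-05 for both). For coding genes alone the shares were 1.73%, 14.1% and 0.125%. Far shared peaks were more often outside genes than near peaks, by 8.70 points (SD 4.88, higher on 21 of 22 autosomes, permutation p = 1e-05; 4.47 points within length groups, 4.31 within GC groups and 2.99 against the near peaks that overlap no interval), and less often than far unshared peaks, by -1.76 points (SD 3.49, lower on 16 of 22, permutation p = 0.027, adjusted 0.029). The last difference lost its call under 7 of the alternatives tried, and was 0.640 points in the other direction with a limit of 50 kb. The surroundings at 9 to 10 kb had a GC content of 47.6%, below the 51.0% around near peaks by -2.91 points over autosomes (SD 1.40) and above the 43.8% around far unshared peaks by 3.37 points (SD 0.527, permutation p = 1e-05 for both). With limits of 2 kb and 50 kb the difference was -1.52 and -7.09 points from near peaks, and 4.14 and 1.23 points from far unshared peaks.

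Inside coding genes of at least 10 kb the far shared peaks leaned towards the end. Of 21972 such peaks, 8.55% had their centre in the first of 10 equal parts of the gene and 13.3% in the last, with a rise from the second part on. Near shared peaks had 32.4% in the first part and 11.4% in the last, and far unshared peaks were level at 9.84 to 10.7% from the second part on, with 7.10% in the first.

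**Figure D5:**
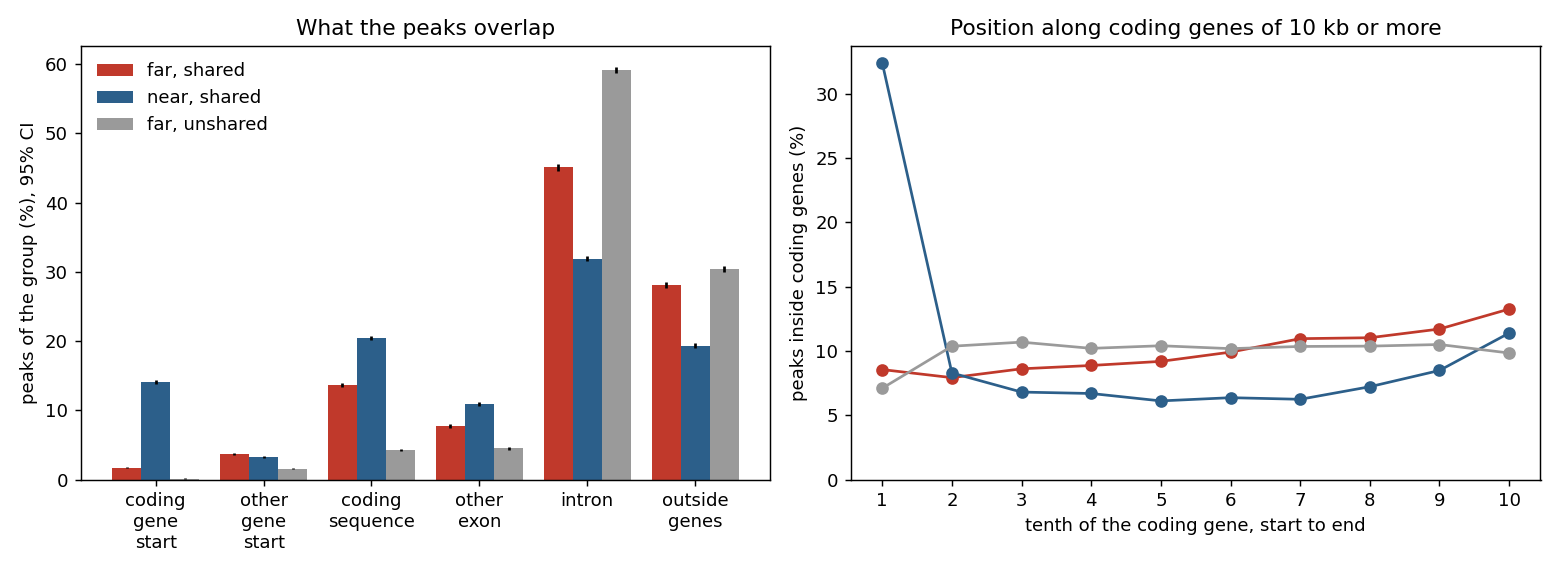
Left, share of far shared, near shared and far unshared peaks in each annotation class (%, with 95% intervals), each peak counted once in the order shown, and right, share of the peaks inside coding genes of at least 10 kb in 10 equal parts of the gene from start to end (%). Near shared peaks have 32.4% in the first part, and far shared peaks have their maximum of 13.3% in the last.

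The gene starts that far shared peaks did contain were of other kinds than at near peaks. Of 2254 starts in far shared peaks, 690 (30.6%) belonged to coding genes, 448 to lncRNA genes, 289 to processed pseudogenes, 288 to the class misc_RNA, 231 to ribosomal RNA pseudogenes and 126 to small nuclear RNAs. At near shared peaks 70.5% of 12201 starts were of coding genes. Copies of small RNA genes that are scattered over the genome were often among them, as they were in far unshared peaks, where misc_RNA and small nuclear RNAs made up 38.0% and 23.2% of 815 starts. Of 501 annotated copies of the 5S ribosomal RNA, a part of the large ribosomal subunit, 236 (47.1%) had their start in a far shared peak, 82 in a far unshared and 25 in a near shared peak. For 7SK, which restrains a transcription elongation factor, it was 96 of 291 copies (33.0%), with 78 in far unshared peaks, for the spliceosomal U1 RNA 48 of 129 (37.2%), with 18 in far unshared peaks. For 7SL, the RNA of the signal recognition particle, it was 183 of 808 (22.6%), fewer than the 216 copies (26.7%) in far unshared peaks. Of U6 copies 62 of 1280 (4.84%) had their start in a far shared and 161 (12.6%) in a far unshared peak, and of Y RNA copies 4 of 771 (0.519%) and 15. For comparison 3.61% of 19111 coding genes and 2.44% of 18390 lncRNA genes had a start in a far shared peak. Copies of a family resemble each other, and the authors kept only reads that align to a single position, and the part of this resemblance in the counts was not tested. These families were looked at after the start counts were seen.

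The 223 far shared peaks over a 5S copy had a median length of 495 bp and a mean GC content of 45.3% (SD 8.16), lower than the far shared peaks as a whole, and 10.8% held a G4 motif. The copy nearest to these averages, RNA5SP386 on the minus strand, is shown on the plus strand in chr14:67657038-67657277, with its 107 annotated bases in capitals. The peak, chr14:67657174-67657668, begins inside the copy.

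RNA5SP386: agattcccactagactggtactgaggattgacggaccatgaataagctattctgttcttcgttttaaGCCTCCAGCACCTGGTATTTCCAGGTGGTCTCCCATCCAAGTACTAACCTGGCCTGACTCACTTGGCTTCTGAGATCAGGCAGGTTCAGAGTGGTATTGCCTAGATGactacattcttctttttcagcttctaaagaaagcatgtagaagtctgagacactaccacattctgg

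Among the families of coding genes counted here, those encoding histones of S phase chromatin most often had a far shared peak alone at the start. A gene was counted here if a far shared peak lay within 1000 bp of its start and no near shared peak did. This held for 1400 of 19111 coding genes (7.33%), while 10877 (56.9%) had a near shared peak at the start and 6834 (35.8%) neither. It held for 29 of 74 replication-dependent histone genes (39.2%), of which 8 (10.8%) had a near shared peak at the start and 37 (50%) neither. On chromosome 6, 26 of 55 histone genes were of this kind, among them H1-4, H2AC6, H2BC4, H3C10 and H4C8. The 21 peaks concerned had a median length of 699 bp and a mean GC content of 53.8% (SD 3.49), 20 of 21 met the CpG criterion and 1 of 21 held a G4 motif. Their distance to the nearest ini-seq 2 interval was 14.6 to 297 kb, and 16 of the 21 contained a coding gene start. Clustered protocadherins, adhesion proteins of neurons with CpG-rich first exons in tandem, had such peaks at 13 of 53 genes (24.5%), with a near shared peak at 2 (3.77%). Of their 14 peaks, only 3 contained a coding gene start, 6 met the CpG criterion and 0 held a G4 motif.

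Other families were closer to the share of all coding genes. A far shared peak alone was found at 63 of 504 ZNF genes (12.5%), which encode zinc finger proteins, at 11 of 92 genes named as cytosolic ribosomal proteins (11.96%), at 8 of 55 keratin genes (14.5%), at 8 of 94 keratin-associated genes (8.51%) and at 5 of 39 HOX genes (12.8%), where HOXA11, HOXB3, HOXB6, HOXB7 and HOXC10 were those concerned. It was found at 7 of 415 olfactory receptor genes (1.69%), sensory receptors whose starts mostly lack CpG islands. Among 15 urothelial genes it was found at 0, and 7 (46.7%) had a near shared peak, beside 56.9% of all coding genes. Families were taken by symbol, so some models that are not functional genes are counted, such as OR1R1P. No family count was tested.

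Far shared peaks were uneven along the genome. Of all coding genes, 7732 (40.5%) held at least 1 in the gene body, and 2254 held far shared but no near shared peaks. PTPRN2, a phosphatase-like protein of secretory granules, held the most, with 93 in 1048768 bp beside 110 near shared peaks. MAD1L1, a spindle checkpoint gene, held 67, counted also for a longer gene model that overlaps it, CDH4, a cadherin, 64, and TRAPPC9, which acts in vesicle transport, 51. KCNQ1 and GSE1 held 46 each, ATP11A 42, CELSR1 41 and INPP5A 40. By length CELSR1, a planar cell polarity cadherin, was the densest of these, with 23.2 per 100 kb, and ATP11A, a lipid flippase, had 21.3 per 100 kb with 4 near shared peaks only. TRAPPC9 had 8 near shared peaks beside its 51. Of the 309 coding genes of at least 500 kb, 263 (85.1%) held a far shared peak and 70 held no near one, but by length they held fewer, with 5.98 per Mb against 18.8 per Mb over all coding genes.

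Of the far shared peaks, 54.4% had another within 5 kb. Joined at that distance they formed 24206 groups, 71.2% of them a single peak and 800 of at least 5 peaks. The largest groups held 27 peaks, at chr16:1506382-1548162 and at chr20:62502319-62532968. The richest 1 Mb windows were the first of chromosome 16 with 131 far shared peaks, 25 of them in LMF1, followed by chr20:62000001-63000000 with 130, chr16:11000001-12000000 with 118, chr17:82000001-83000000 with 101, 34 of them in TBCD, and chr19:5000001-6000000 with 99, 26 of them in PTPRS. All but 1 of these windows are also rich in ini-seq 2 intervals, with 56 to 95 at 3 hours. The exception is chr16:11000001-12000000, where 6 intervals and 43 near shared peaks were called and CLEC16A, linked to mitophagy, held 27 far shared peaks and SNX29 19.

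By chromosome the far share of shared peaks went from 27.6% on chromosome 19, the richest in genes for its size, to 53.5% on chromosomes 13 and 18. Per Mb of chromosome, far shared peaks were fewest on chromosome 4, with 5.95, and most frequent on chromosome 19, with 42.6. Mean GC content of far shared peaks hardly moved, between 53.5% on chromosome 6 and 56.8% on chromosome 22.

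A few of the most extreme far shared peaks lie in sequence that is hard to place. The longest, 5165 bp at chr20:29296927-29302091, contains a start annotated as 5.8S ribosomal RNA and the G4 motif printed above. The next, 3939 bp at chr22:11627354-11631292, touches an assembly gap. The others of the 5 longest are chr20:30511413-30514830, chr2:132278643-132281774 and chr16:4882529-4885614, the last in exons of PPL, which encodes periplakin. Of the 5 farthest peaks, 3 lie on chromosome 1 between 125085590 and 125119310, 65277 to 98524 bp from a gap, with CpG ratios of 1.14 to 1.17. In all, 2549 far shared peaks (6.74%) lie within 1000 kb of an assembly gap of at least 50 kb, against 8.78% of near shared peaks. Besides the peaks in ARID1B and on chromosome 20, the most G4 motifs were found in FBRS, with 9 in 3081 bp, PNPLA7, with 8 in 567 bp, and SEC14L5, with 7 in 1304 bp.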

How the data were processed

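Reads were aligned to hg38 by the authors (Bowtie2), who discarded those without a unique position and duplicates. SNS-seq peaks were called with MACS2 against genomic DNA of EJ30 cells, and the deposited lists hold interval bounds only. For ini-seq 2 the authors called intervals from the ratio of heavy to light DNA in windows. The deposited value of the 3-hour list is a fraction, the efficiency, and that of the 15-minute list is a score, a Z-score over the list. Neither value was used here beyond the positions. The 3-hour list pools replicates, and the number behind the other lists is not given in the sources used here. The genomic DNA library was not analysed here. The deposited lists hold no counts, so the depth behind a single peak or interval is unknown, and library totals were not used here.

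SNS-seq starts were read as 0-based, which the lists do not settle, so their first base may be off by 1 bp. Sequence features were computed on hg38 and genes taken from GENCODE 44, with matplotlib 3.10.9, pandas 2.3.3, scipy 1.17.1 and numpy 2.4.6 under Python 3.11.15. G4 motifs, purine runs and repeats were searched on both strands with nothing masked. Sequences on chromosome 8 and windows that touch an untranslated region were passed over when sequences were chosen for print. A further sequence is not reported here. The functions were tested on simulated data. The 16 tests compared means or shares per autosome by 100000 sign flips with Benjamini-Hochberg adjustment. A planned measure of masked repeats was not run, because the sequence used is not masked, so 16 of the planned tests remain. Named items are the 10 coding genes with most far shared peaks, the 5 richest 1 Mb windows, the 5 longest, 5 farthest and 5 most G4-rich peaks, the 10 longest over a coding start, the peaks at the limit and gene families by symbol, and others are said to be chosen after their values were seen. Members and lists were chosen with earlier results of these data known. Alternatives were other distance limits, overlaps, lengths, windows, gene sets and comparison peaks, and, chosen after seeing the data, the side of the partner and the distance to assembly gaps.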

Additional observations from a re-analysis of the deposited data

How the results depend on the processing

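Of the values recomputed under each alternative, 171 kept their direction and side of the threshold, 10 no longer passed the test, 1 newly passed it, 4 reversed and 6 moved. GC content, G4 motifs and surrounding GC content kept their direction and call under every alternative run, in both comparisons. Against near peaks that overlap no ini-seq 2 interval, CpG islands (2.02 points) and gene starts (2.98) reversed, and purine runs (-0.0236) and dinucleotide repeats (-0.0924) lost their call. The difference from far unshared peaks in the share outside genes was -1.003 with a limit of 10 kb, 0.640 (reversed) with 50 kb, -1.41 in peaks of at least 300 bp, -1.31 in 300 bp windows, -0.730 within length groups, -1.51 within GC groups, -1.66 for coding genes only and -1.46 with the partner on the same side of the limit. Against far unshared peaks in 300 bp windows, purine runs came to 0.0610, which no longer passed, and dinucleotide repeats to -0.0243 (reversed), and with the 3-hour list alone dinucleotide repeats came to 0.0709, which passed the test. The far share of shared peaks was 53.0% with a limit of 2 kb, 31.0% with 10 kb, 11.7% with 50 kb, 39.3% where the partner covers at least 50% of the peak, 41.4% with the 3-hour list alone and 34.3% in peaks of at least 300 bp. The causes were not tested. No paired analysis was possible because each condition is 1 list. Without counts, a site below the peak caller's threshold cannot be told from a site without signal.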

Other observations

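The rule takes autosomes only. On chromosome X, 2040 peaks of the 0.5 to 2 kb fraction were called, 1299 of them shared with the 2 to 4 kb fraction, and 662 of the shared ones (51.0%) lay more than 5 kb from every ini-seq 2 interval. The median length of these 662 peaks was 320.5 bp and their median distance to an interval 79132 bp, against 22.8 kb on the autosomes.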
